A study of Mus musculus with 10 samples.

Results

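The osteoblast and bone matrix genes described here are 10 mouse genes, Runx2, Sp7, Alpl, Ibsp, Spp1, Bglap, Bglap2, Ifitm5, Dmp1 and Phex, which were chosen by name among the 46959 genes of a table of read counts. RNA sequencing of total RNA covered 10 libraries in 5 groups of 2, all from mice aged 8 to 10 weeks. The 2KO group was femoral B cells whose genotype the sample labels do not spell out, and the series' design text names mice deficient for 5'Eµ and 3'RR, which are enhancers of the immunoglobulin heavy chain locus. The deltaEmu group was femoral B cells with the Eµ enhancer deleted, and the RAG2_deficient group was femoral B cells lacking RAG2, a subunit of the recombinase without which antigen receptor genes are not assembled. These 3 groups were labelled C57BL6 and were lysed without culture. The LPS_IL4_SAHA and LPS_IL4 groups were wild-type spleen cells depleted of CD43+ cells, labelled strain 129 although the growth protocol names KOKI and BLACK-6 mice, and cultured for 2 days with lipopolysaccharide (LPS, 5 µg/ml) and interleukin 4 (IL4, 20 ng/ml). LPS_IL4_SAHA cultures also received the histone deacetylase inhibitor SAHA, at 200 nM by the sample descriptions or 200 ng/ml by the protocol. The labels describe the libraries as RNA pools, so p-values here measure only the spread between these pools.

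Columns of the count table were assigned by the sequencing index that ends each sample description. The sample number in the titles gives a different sample for 8 of the 10 columns and the same sample for the RAG2_deficient columns. The titles also place SAHA on the opposite spleen libraries. The direction of 2KO against deltaEmu and of SAHA thus rests on the descriptions. Title numbers would exchange tissue between the spleen libraries and those of 2KO and deltaEmu, for which Rag1 is given here. Rag1, a gene of immature lymphocytes, was at 138 to 921 CPM (counts scaled by library totals adjusted with TMM factors, which correct for differences in RNA composition) in the libraries assigned to femur and at 0 to 0.0433 CPM in those assigned to spleen. Libraries held 17710154 to 20825349 counts in the femoral groups and 20198437 to 25544275 counts in the spleen groups. The femoral libraries also carried RNA of other marrow cells: 10 neutrophil genes summed to 8919 to 10791 CPM in 2KO, 17316 to 20637 CPM in deltaEmu and 6873 to 7761 CPM in RAG2_deficient libraries, and 9 erythroid genes to 10436 to 15542, 2383 to 2586 and 3224 to 5681 CPM. The sums of 12 B cell genes were lower, at 694 to 1131 CPM in 2KO, 828 to 1263 CPM in deltaEmu and 2803 to 3187 CPM in RAG2_deficient libraries. The Y-linked gene Ddx3y was at 43.0 to 65.8 CPM in the 2KO and deltaEmu libraries and at 0.233 and 0 CPM in the RAG2_deficient libraries, while Xist, which the inactive X chromosome makes, was at 644 to 2754 CPM in all 6, so sex and genotype cannot be told apart in comparisons with RAG2_deficient cells.

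Osteoblasts are the cells on bone surfaces that lay down a matrix of type I collagen and mineralise it, and they arise from mesenchymal precursors rather than from the blood lineage. The transcription factor Runx2 commits precursors to this fate and Sp7 (osterix) acts after it. Alkaline phosphatase (Alpl) then frees phosphate for mineral, and maturing cells secrete bone sialoprotein (Ibsp), osteopontin (Spp1) and osteocalcin (Bglap and Bglap2), while cells buried in the matrix as osteocytes make Dmp1 and Phex.

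The sequences of the osteocalcin genes are given because they bear on how their counts can be read. Bglap (mm10 chr3:88383501-88384464, minus strand) and Bglap2 (chr3:88377736-88378699, minus strand) lie beside each other, and their coding sequences in GENCODE vM21 (GRCm38) have 288 bases each, with 4 differences (98.6% identity). Capitals mark the bases that differ:
Bglap coding: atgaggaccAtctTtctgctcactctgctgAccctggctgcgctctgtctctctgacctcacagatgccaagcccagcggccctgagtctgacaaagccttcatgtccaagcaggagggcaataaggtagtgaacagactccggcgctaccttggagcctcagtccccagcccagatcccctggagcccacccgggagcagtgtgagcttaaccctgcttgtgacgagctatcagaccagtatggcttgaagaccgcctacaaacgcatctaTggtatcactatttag
Bglap2 coding: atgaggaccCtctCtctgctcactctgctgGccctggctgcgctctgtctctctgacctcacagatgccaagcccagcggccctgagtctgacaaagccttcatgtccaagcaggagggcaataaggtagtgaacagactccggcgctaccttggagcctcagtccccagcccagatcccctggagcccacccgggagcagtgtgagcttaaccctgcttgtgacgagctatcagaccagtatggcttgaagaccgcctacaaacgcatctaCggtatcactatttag
Of the 391 stretches of 50 bases in the transcript that holds this Bglap sequence, 292 (74.7%) also occur in that of Bglap2. How reads with several matches were counted is not given in the sources used here, so the division of counts between these genes is uncertain. Bglap2 received 0.453 to 0.546 counts for each Bglap count in the 6 femoral libraries. The third copy, Bglap3, had at most 8 counts in a femoral library.

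Promoter windows from RefSeq (GRCm38.p6), from 250 bases before to 50 bases after a start site, were found for 8 of the 10 genes (11 windows), with no entry for Bglap2 and Sp7. They were searched for the letters TGTGGT on either strand (ACCACA on the other), the core that Runx factors bind. The core was present in 4 of the 11 windows (36.4%), 1 each of Bglap, Dmp1, Spp1 and Runx2, and in 5506 of all 32851 windows (16.8%). Dmp1 and Spp1 each also had a window without the core. The Runx2 window held 3 cores, of which 1 lies in the bases printed here. These letters are not in the windows of Alpl, Ibsp, Ifitm5 and Phex. The 250 bases before the start site of those 4 windows are shown on the gene's strand with the core in capitals, since they belong to 3 genes that fell and to Runx2, which did not pass the test in the fit reported: Bglap (chr3:88384467-88384716, minus strand), Dmp1 (chr5:104202367-104202616, plus strand), Spp1 (chr5:104434861-104435110, plus strand) and Runx2 (chr17:44814628-44814877, minus strand).
Bglap: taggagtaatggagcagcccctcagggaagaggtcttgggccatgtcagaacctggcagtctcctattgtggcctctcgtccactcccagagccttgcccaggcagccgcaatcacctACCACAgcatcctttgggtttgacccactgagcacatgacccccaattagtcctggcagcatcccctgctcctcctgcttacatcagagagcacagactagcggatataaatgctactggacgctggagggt
Dmp1: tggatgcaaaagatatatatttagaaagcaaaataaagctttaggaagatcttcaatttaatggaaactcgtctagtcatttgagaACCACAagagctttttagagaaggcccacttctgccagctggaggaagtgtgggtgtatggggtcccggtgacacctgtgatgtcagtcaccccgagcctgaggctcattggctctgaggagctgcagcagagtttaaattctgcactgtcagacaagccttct
Spp1: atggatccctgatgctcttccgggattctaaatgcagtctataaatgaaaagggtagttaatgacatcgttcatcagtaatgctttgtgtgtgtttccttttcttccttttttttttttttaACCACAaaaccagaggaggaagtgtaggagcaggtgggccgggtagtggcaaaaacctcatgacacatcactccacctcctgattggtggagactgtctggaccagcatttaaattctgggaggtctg
Runx2: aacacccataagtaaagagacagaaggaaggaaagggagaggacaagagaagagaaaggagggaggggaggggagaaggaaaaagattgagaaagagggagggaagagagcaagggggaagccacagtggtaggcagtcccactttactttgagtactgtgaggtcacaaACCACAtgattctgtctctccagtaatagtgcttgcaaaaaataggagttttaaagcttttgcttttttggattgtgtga
A match of 6 letters describes the sequence and does not show binding.

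Osteocalcin, the matrix genes, alkaline phosphatase and the osteocyte genes were lower in both 2KO and deltaEmu cells than in RAG2_deficient cells. Runx2 and Ifitm5 did not pass the test in either comparison, although some alternative fits called Runx2 lower in deltaEmu cells and Ifitm5 lower in both. In 2KO against RAG2_deficient cells, 8 of the 10 genes fell and none rose, by 2.74-fold (Spp1) to 13.3-fold (Bglap2), where 3.05% of the 16538 genes tested fell. In deltaEmu against RAG2_deficient cells the same 8 genes fell, by 2.13-fold (Ibsp) to 5.21-fold (Bglap2), where 5.39% of genes fell. The median log2 change of the 10 genes was -2.28 and -1.62 in these comparisons, where all genes tested had medians of -0.0007 and -0.01. Both comparisons use the same RAG2_deficient libraries, so they are not independent of each other. Calls are adjusted p-values under 0.05 from edgeR's quasi-likelihood test on the 6 femoral libraries, adjusted over all genes tested by Benjamini-Hochberg. In these bulk samples, fewer bone cells and less of the RNA per bone cell cannot be told apart.

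Between 2KO and deltaEmu cells, 1 of the 10 genes, Ibsp, fell in 2KO and none rose, where 1.91% of genes fell. The median log2 change of the 10 genes was -0.45, where that of all genes was -0.01. The remaining 9 genes had adjusted p-values between 0.109 (Phex) and 0.854 (Ifitm5), which does not show that they were alike.

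**Figure D1:**
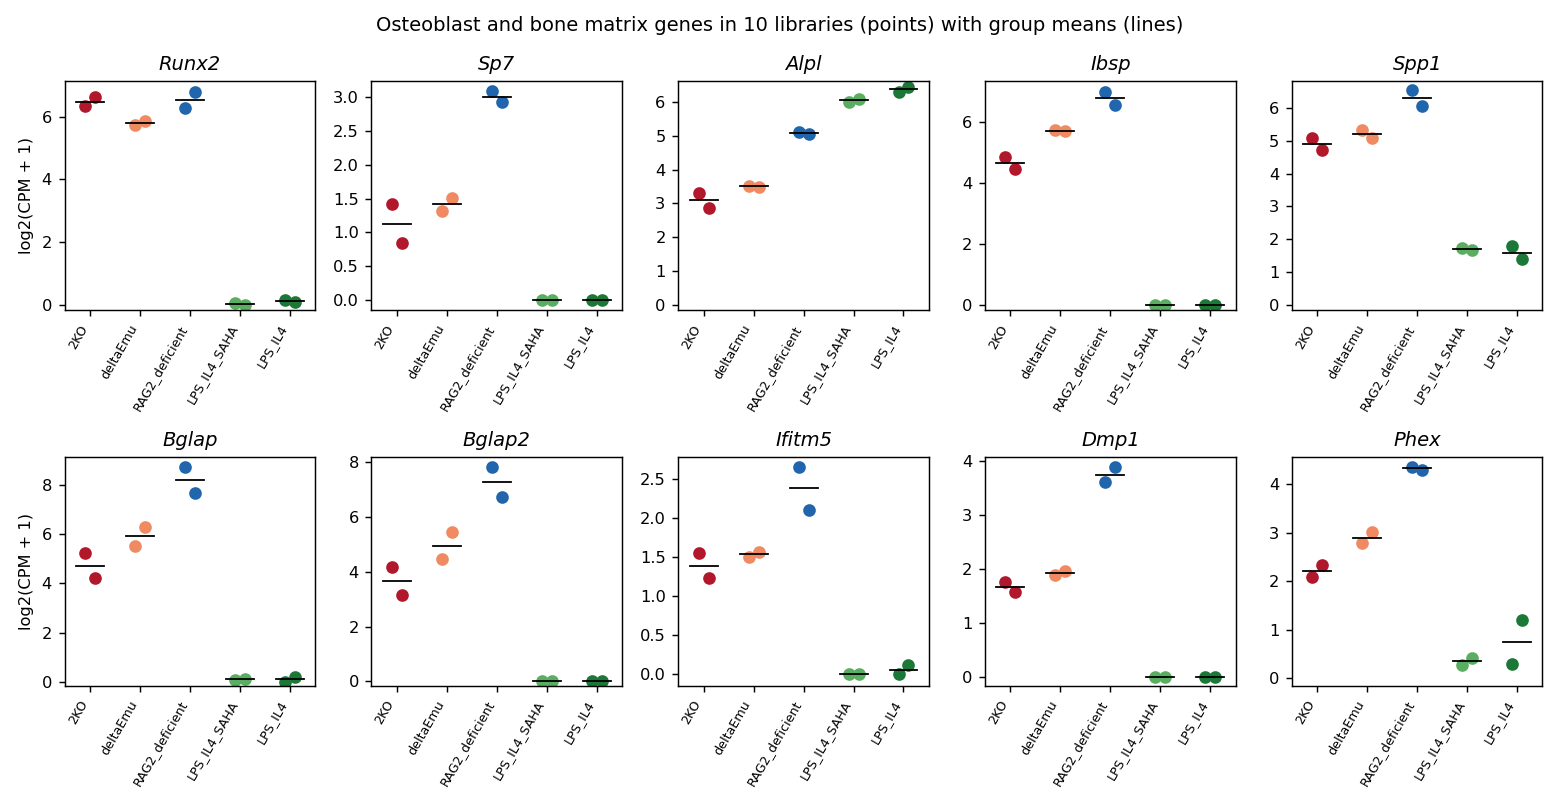
Level of each gene in each library as log2(CPM + 1), with 2 points per group and the group mean as a line. Except in the Runx2 panel, both RAG2_deficient points lie above all 2KO and deltaEmu points, also for Ifitm5, which did not pass the test. The share of all genes that separate in this way was not counted. Alpl is the gene whose spleen points lie above its femoral points.

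Runx2, the factor that commits cells to the osteoblast fate (chr17:44495987-44814797, minus strand), was at 79.4 and 97.2 CPM in 2KO, 52.1 and 57.4 CPM in deltaEmu and 76.8 and 110.0 CPM in RAG2_deficient libraries. The 2KO values lay within the RAG2_deficient range and the deltaEmu values were the lowest. The log2 fold change of 2KO over RAG2_deficient was -0.09 ± 0.21 (SE, adjusted p = 0.872 by edgeR). For deltaEmu over RAG2_deficient it was -0.78 ± 0.21 (adjusted p = 0.0606), and 3 of 11 alternatives called Runx2 lower: DESeq2 (adjusted p = 0.0254), no filter on low counts (0.00659) and leaving out RAG2_deficient replicate 2 (0.00473). The 2KO libraries also lay above the deltaEmu libraries without overlap, at a log2 fold change of 0.68 ± 0.21 that missed the threshold (adjusted p = 0.158) in the fit to all 3 groups and passed it in 4 of 11 alternatives, among them a fit to these groups alone (adjusted p = 0.0212). Runx2 is also known from plasmacytoid dendritic cells. The 10 genes listed for those cells, led by Irf8 and Tcf4, which B cells also make, summed to 827 to 846 CPM in 2KO, 935 to 981 CPM in deltaEmu and 911 to 998 CPM in RAG2_deficient libraries. They summed to 604 to 628 CPM in LPS_IL4_SAHA and 616 to 627 CPM in LPS_IL4 libraries, where Runx2 was near 0, so the sum is no specific measure of such cells. Of these 10 genes, 7 were higher and 0 lower in femoral than in spleen cells, where 40.9% of all genes were higher. Klk1 and Siglech of the list, near 0 in spleen cells, could only be called higher. Siglech of that list averaged 93.0 CPM in 2KO, 113.8 CPM in deltaEmu and 94.2 CPM in RAG2_deficient cells. In LPS_IL4_SAHA and LPS_IL4 cells it averaged 0.0455 and 0.0762 CPM. The part of plasmacytoid dendritic cells in Runx2 was not tested. Runx2 exons share 519 bases with the antisense gene Runx2os1, which had at most 36 counts in a library. The strand setting of the counting is not given in the sources used here.

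Sp7, the zinc finger factor that acts downstream of Runx2 (chr15:102356609-102366325, minus strand), was at 1.68 and 0.784 CPM in 2KO, 1.499 and 1.85 CPM in deltaEmu and 7.50 and 6.65 CPM in RAG2_deficient libraries. Both RAG2_deficient values lay above the other 4, among which the groups overlapped. Sp7 fell 5.78-fold in 2KO (log2 -2.53 ± 0.40, adjusted p = 0.0169) and 4.24-fold in deltaEmu cells (log2 -2.08 ± 0.39, adjusted p = 0.0165) relative to RAG2_deficient cells. The group totals behind these values were 54, 65 and 266 counts in 2KO, deltaEmu and RAG2_deficient cells.

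Alpl, the membrane enzyme that hydrolyses pyrophosphate (chr4:137741733-137796384, minus strand), was at 8.84 and 6.36 CPM in 2KO, 10.4 and 10.3 CPM in deltaEmu and 33.6 and 32.3 CPM in RAG2_deficient libraries. The 3 groups did not overlap and their order was 2KO, deltaEmu, RAG2_deficient. Alpl fell 4.38-fold in 2KO (log2 -2.13 ± 0.21, adjusted p = 0.00229) and 3.20-fold in deltaEmu cells (log2 -1.68 ± 0.21, adjusted p = 0.00354) relative to RAG2_deficient cells.

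Ibsp, an acidic glycoprotein of the mineralising matrix (chr5:104299171-104311469, plus strand), was at 27.7 and 20.9 CPM in 2KO, 51.6 and 50.9 CPM in deltaEmu and 125.8 and 92.2 CPM in RAG2_deficient libraries. No group overlapped another, and each step up in that order was called. Ibsp fell 2.12-fold in 2KO relative to deltaEmu cells (log2 -1.08 ± 0.21, adjusted p = 0.0359). It fell 4.52-fold in 2KO (adjusted p = 0.00247) and 2.13-fold in deltaEmu cells (adjusted p = 0.0188) relative to RAG2_deficient cells. The call between 2KO and deltaEmu cells was lost when any 1 of their 4 libraries was left out, with log2 fold changes from -1.29 to -0.89 over all alternatives.

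Spp1, a phosphorylated matrix protein that macrophages and osteoclasts also make (chr5:104435118-104441050, plus strand), was at 33.0 and 25.3 CPM in 2KO, 39.2 and 32.7 CPM in deltaEmu and 93.4 and 65.0 CPM in RAG2_deficient libraries. The 2KO and deltaEmu groups overlapped each other and lay below both RAG2_deficient values. Spp1 fell 2.74-fold in 2KO (log2 -1.45 ± 0.23, adjusted p = 0.0185) and 2.21-fold in deltaEmu cells (log2 -1.15 ± 0.23, adjusted p = 0.0216), the smallest and next to smallest of the called changes in those comparisons. The 10 macrophage and monocyte genes, led by Ly6c2 and Csf1r, summed to 1010 to 1057 CPM in 2KO, 1380 to 1539 CPM in deltaEmu and 913 to 1461 CPM in RAG2_deficient libraries. Single members differed. Mrc1 averaged 48.1, 28.9 and 86.9 CPM in these groups, and Csf1r 193.9, 264.8 and 154.6 CPM. Against RAG2_deficient cells, 1 of the 10 fell and 1 rose in 2KO, while 5 fell and 2 rose in deltaEmu cells. The part of macrophages and monocytes in Spp1 was not tested. Gm42793, with at most 18 counts in a library, shares 309 exonic bases with it on the same strand.

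Bglap, the main osteocalcin gene by count, was at 36.6 and 17.5 CPM in 2KO, 45.5 and 77.4 CPM in deltaEmu and 420.1 and 202.7 CPM in RAG2_deficient libraries. Bglap2 was at 17.0 and 7.93 CPM in 2KO, 21.0 and 42.3 CPM in deltaEmu and 222.5 and 105.0 CPM in RAG2_deficient libraries. For both genes the groups did not overlap, although the 2 libraries of a group differed more than for any other of the 10 genes in the RAG2_deficient group. Bglap fell 11.6-fold in 2KO (log2 -3.54 ± 0.49, adjusted p = 0.0111) and 5.10-fold in deltaEmu cells (log2 -2.35 ± 0.47, adjusted p = 0.0212) relative to RAG2_deficient cells. Bglap2 fell 13.3-fold in 2KO (adjusted p = 0.0121) and 5.21-fold in deltaEmu cells (adjusted p = 0.0249). With Bglap, Bglap2 and Bglap3 added together, which sets aside how reads are divided among the copies, the sum fell 12.1-fold in 2KO (adjusted p = 0.0122) and 5.12-fold in deltaEmu cells (adjusted p = 0.0237). Between 2KO and deltaEmu cells the sum had a log2 fold change of -1.24 ± 0.47 (adjusted p = 0.256).

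Ifitm5, a small membrane protein of mineralising osteoblasts (chr7:140948963-140950239, minus strand), was at 1.92 and 1.35 CPM in 2KO, 1.83 and 1.96 CPM in deltaEmu and 5.29 and 3.30 CPM in RAG2_deficient libraries. Both RAG2_deficient values were the highest, but the test was not passed in 2KO (log2 -1.40 ± 0.37, adjusted p = 0.0781) or in deltaEmu cells (log2 -1.18 ± 0.37, adjusted p = 0.0878). Ifitm5 was called lower in 2KO in 3 of 11 alternatives (no filter on low counts, DESeq2 and without RAG2_deficient replicate 3) and in deltaEmu cells in 2 of 11 (no filter, and without RAG2_deficient replicate 3), at adjusted p-values from 0.00531 to 0.0341. It had 72, 74 and 159 counts in all in the 2KO, deltaEmu and RAG2_deficient groups.

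Dmp1, an acidic matrix protein of osteocytes (chr5:104202613-104214102, plus strand), was at 2.39 and 2.00 CPM in 2KO, 2.72 and 2.92 CPM in deltaEmu and 11.2 and 13.7 CPM in RAG2_deficient libraries. Phex, an endopeptidase of osteoblasts and osteocytes that acts in phosphate balance (chrX:157162075-157415312, minus strand), was at 3.28 and 4.05 CPM in 2KO, 5.86 and 7.07 CPM in deltaEmu and 19.5 and 18.6 CPM in RAG2_deficient libraries. Neither gene's groups overlapped. Dmp1 fell 5.72-fold in 2KO (adjusted p = 0.00278) and 4.43-fold in deltaEmu cells (adjusted p = 0.003) relative to RAG2_deficient cells. Phex fell 5.24-fold in 2KO (adjusted p = 0.0019) and 2.96-fold in deltaEmu cells (adjusted p = 0.00521), and it is the X-linked gene among the 10.

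**Figure D2:**
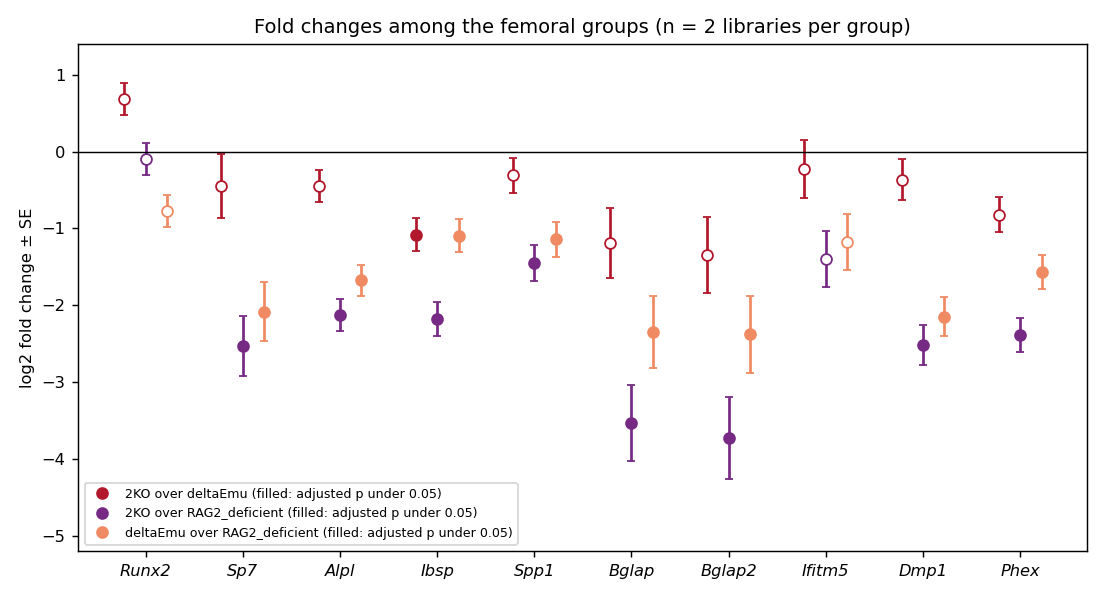
Log2 fold change with its standard error for each gene in the 3 comparisons among femoral groups, filled where the adjusted p was under 0.05. The points against RAG2_deficient run from near 0 for Runx2 (-0.09 in 2KO) to -3.73 for Bglap2 in 2KO, and 1 point of 2KO over deltaEmu is filled, that of Ibsp.

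The calls against RAG2_deficient cells depended on single libraries in different degree. In 2KO against RAG2_deficient cells, 5 genes (Alpl, Ibsp, Bglap, Dmp1 and Phex) were called without 2KO replicate 3, the lowest number over the libraries left out. In deltaEmu against RAG2_deficient cells, none was called without deltaEmu replicate 5 and 1 (Dmp1) without deltaEmu replicate 7, while all 8 log2 fold changes stayed negative, Bglap at -2.02 and -2.77 and Ibsp at -1.10 and -1.07.

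Per kilobase of exon, which allows levels to be compared between genes, Bglap was the highest of the 10 in every femoral group, at 43.8 ± 21.9 CPM per kb in 2KO, 99.5 ± 36.5 in deltaEmu and 503.9 ± 248.7 in RAG2_deficient cells (SD, n = 2 each). Bglap2 followed at 26.5 ± 13.7, 67.2 ± 31.9 and 347.7 ± 176.3 CPM per kb. Sp7 was the lowest in every femoral group, at 0.425 ± 0.219, 0.577 ± 0.0858 and 2.44 ± 0.207 CPM per kb. Ibsp, Spp1 and Runx2 stood after osteocalcin in all 3 groups, with Runx2 the lowest of them at 9.99 ± 1.42 CPM per kb in 2KO, 6.19 ± 0.424 in deltaEmu and 10.6 ± 2.66 in RAG2_deficient cells. In 2KO cells the libraries of Ibsp (13.4 and 10.1 CPM per kb) and Runx2 (8.99 and 10.999) overlapped, while in RAG2_deficient cells Ibsp (52.7 ± 11.5) and Spp1 (48.1 ± 12.2) were within each other's spread and above every Runx2 library. Alpl and Ifitm5 followed, at 1.88 ± 0.436 and 2.31 ± 0.568 CPM per kb in 2KO, and then Dmp1 and Phex.

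**Figure D3:**
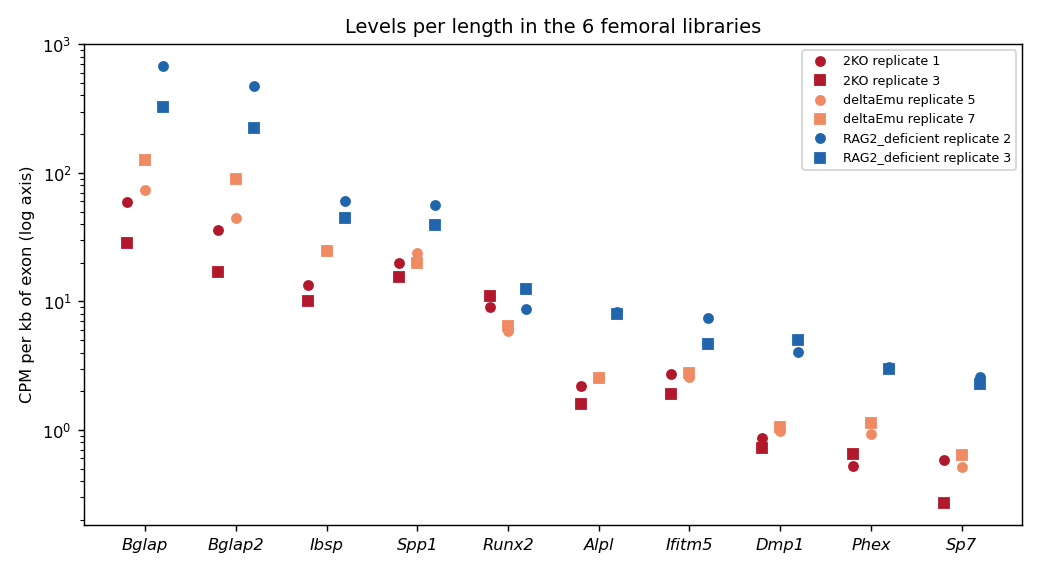
CPM per kb of exon (log axis) in the 6 femoral libraries, with the genes ordered by their RAG2_deficient mean. Bglap stands at the top in each group mean, and the groups lie closest for Runx2.

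The make-up of the bone gene RNA is given as a description, with no test. Bglap and Bglap2 together held 66.0% and 52.0% of the summed CPM per kb of the 10 genes in 2KO, 65.5% and 78.5% in deltaEmu and 88.4% and 82.2% in RAG2_deficient libraries. Both RAG2_deficient values were above the other 4. Runx2 held 6.21% and 12.7% of the sum in 2KO, 3.26% and 2.37% in deltaEmu and 0.67% and 1.86% in RAG2_deficient libraries. These shares depend on the osteocalcin genes in the sum, since the level of Runx2 itself overlapped between 2KO and RAG2_deficient libraries. Set against Ibsp, Bglap was at 1.32 and 0.836 CPM per Ibsp CPM in 2KO, 0.882 and 1.52 in deltaEmu and 3.34 and 2.20 in RAG2_deficient libraries. Phex per Ibsp overlapped between all groups, at 0.118 and 0.193 in 2KO, 0.113 and 0.139 in deltaEmu and 0.155 and 0.202 in RAG2_deficient libraries. Dmp1 per Ibsp was at 0.0861 and 0.0956 in 2KO, 0.0526 and 0.0573 in deltaEmu and 0.0888 and 0.149 in RAG2_deficient libraries, where 2KO and RAG2_deficient overlapped.

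**Figure D4:**
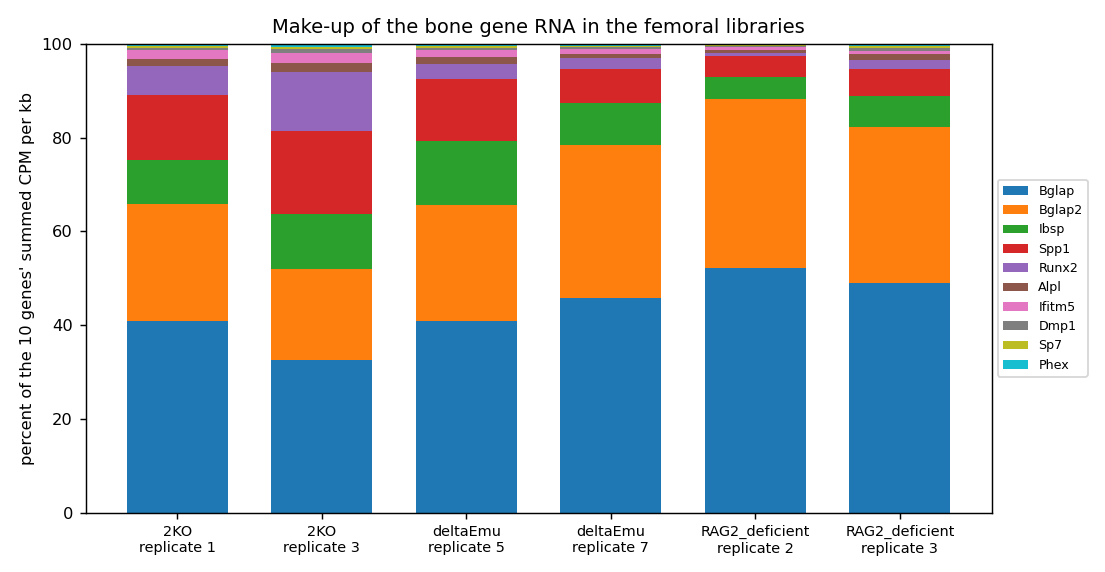
Share of each gene in the summed CPM per kb of the 10 genes, 1 bar per femoral library, from 0 to 100%. The osteocalcin genes take 82.2% and 88.4% of the bars of the RAG2_deficient libraries and 52.0% to 78.5% of the others.

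In femoral cells as a whole set against cultured spleen cells, 9 of the 10 genes were higher and 1, Alpl, was lower, where 40.9% of the 17483 genes tested were higher and 30.6% lower. The median log2 change of the 10 genes was 9.10, and that of all genes 0.21. Runx2, Sp7, Ibsp, Bglap, Bglap2, Ifitm5 and Dmp1 passed the filter on low counts only through femoral libraries. For these genes higher was the only call open, so the number called higher and the median rest largely on the filter. Tissue, labelled strain, genotype, culture and stimulation differ together between these libraries and cannot be told apart. Make-up by sex differs with them, since Xist was at 0 to 0.196 CPM in the spleen and 644 to 2754 CPM in the femoral libraries. Ibsp, Bglap2, Dmp1 and Sp7 had no count in any spleen library. Against a floor of 3 counts per library (0.14 CPM on average), the means of the 6 femoral libraries were at least 439-fold, 495-fold, 41.6-fold and 23.8-fold higher. These bounds hold for the pooled femoral mean, which the RAG2_deficient libraries raise. The 2KO means were lower, at 24.3, 12.5, 2.19 and 1.23 CPM. Runx2 had 5 counts and Bglap 7 counts in the 4 spleen libraries together, which gives femoral to spleen ratios of 1388 (594 to 4275) and 1534 (745 to 3817), with exact 95% intervals that cover counting error only. Ifitm5 had 2 counts, for a ratio of 110 (30.1 to 910). Bglap3 had 36 counts in the spleen libraries, more than Bglap and Bglap2. With Bglap, Bglap2 and Bglap3 added together, the sum was 269-fold higher in femoral cells (adjusted p = 2.08e-07 by edgeR).

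Spp1 and Phex were low but present in spleen cultures. Spp1 was at 2.34 and 2.19 CPM in LPS_IL4_SAHA and 2.43 and 1.61 CPM in LPS_IL4 libraries, and was 21.6-fold higher in femoral cells (log2 4.43 ± 0.20, adjusted p = 5.67e-08 by edgeR). Phex was at 0.216 and 0.334 CPM in LPS_IL4_SAHA and 0.226 and 1.30 CPM in LPS_IL4 libraries, and was 16.8-fold higher in femoral cells (adjusted p = 1.02e-05). Alpl stood apart from the other genes. It was at 63.2 and 67.6 CPM in LPS_IL4_SAHA and 78.0 and 86.2 CPM in LPS_IL4 libraries, above every femoral library, and was 5.08-fold lower in femoral cells (log2 -2.34 ± 0.12, adjusted p = 1.33e-07). Alkaline phosphatase is known from LPS-stimulated mouse B cells as well as from bone.

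SAHA was tested on 2 of the 10 genes, those with enough counts in the spleen libraries, and neither was called, where 0% of the 13913 genes tested were called in either direction. Of all genes, 187 had an unadjusted p under 0.05, neither of the 2 among them, and DESeq2 called 0. Alpl was lower in both LPS_IL4_SAHA than in both LPS_IL4 libraries, at a log2 fold change of -0.42 ± 0.21 (adjusted p = 0.939 by edgeR). Spp1 overlapped between the groups, at a log2 fold change of 0.09 ± 0.38 (adjusted p = 0.967). The remaining 8 genes were below the filter on low counts: 4 had no count, and Runx2, Bglap and Ifitm5 had 1, 3 and 0 counts in LPS_IL4_SAHA and 4, 4 and 2 counts in LPS_IL4 cells. Phex had 12 counts in LPS_IL4_SAHA and 37 in LPS_IL4 cells. It was called lower in 1 of the alternatives run (adjusted p = 0.0206), without LPS_IL4 replicate 4_et_7, where the LPS_IL4 group was the library at 1.30 CPM.

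A wider list of 35 osteoblast and mineralisation genes was read beside the 10. In 2KO against RAG2_deficient cells 18 of its 29 tested genes fell and none rose (median log2 -2.21), where 3.05% of all genes fell. In deltaEmu against RAG2_deficient cells 20 fell and none rose (median -1.84), where 5.39% of all genes fell. Between 2KO and deltaEmu cells none was called (median -0.20). Some genes of the list, such as Dlx5 and Twist1, passed the filter on low counts only through the RAG2_deficient libraries. A rise against RAG2_deficient cells could not be called for these, so the counts and medians depend in part on the filter. The genes of the list summed to 1413 to 1924 CPM in 2KO, 2588 to 2738 CPM in deltaEmu and 7672 to 8505 CPM in RAG2_deficient libraries. Most of that sum was type I collagen, the main fibre of bone: Col1a1 averaged 602.6 ± 145.0 CPM in 2KO, 918 ± 43.7 CPM in deltaEmu and 3283 ± 4.09 CPM in RAG2_deficient cells, and Col1a2 602.3 ± 171.2, 1105 ± 40.9 and 3361 ± 449 CPM (SD, n = 2 each). Col1a1 fell 5.50-fold in 2KO and 3.59-fold in deltaEmu cells (adjusted p = 0.00691 and 0.00996), beside osteonectin, Sparc, at 7.14-fold and 3.45-fold (adjusted p = 0.00152 and 0.00477).

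Of the other genes of this list at 10 CPM or more, the fibrillar collagen gene Col11a1 fell 8.03-fold in 2KO and 3.99-fold in deltaEmu cells. The collagen cross-linking enzyme Lox, the gap junction gene Gja1, the adhesion gene Cdh11, the sphingomyelinase Smpd3, the matrix gene Postn and Serpinf1 (pigment epithelium-derived factor) were likewise called lower in both comparisons. Tmem119, a membrane protein, fell in 2KO (adjusted p = 0.0269) and missed the threshold in deltaEmu cells (adjusted p = 0.0868). Atf4, a stress-responsive factor found in many cells, and the Wnt co-receptor Lrp5 did not pass in any femoral comparison. Lrp5 averaged 46.8 ± 2.59 CPM in 2KO, 43.0 ± 3.16 CPM in deltaEmu and 44.2 ± 1.85 CPM in RAG2_deficient cells. In spleen cells, 12 of the 35 genes had no count, among them Col11a1 and Postn.

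Genes of the bone-resorbing osteoclast were counted in the same comparisons. Of 9 tested osteoclast genes, none was called in 2KO and 2 fell in deltaEmu against RAG2_deficient cells (medians 0.15 and 0.10), and their sum was 988 to 1358 CPM in 2KO, 777 to 835 CPM in deltaEmu and 719 to 792 CPM in RAG2_deficient libraries. Car2, carbonic anhydrase, led that sum and is also made by erythroid cells. Other connective tissue lists also held genes that fell, where 3.05% and 5.39% of all genes fell in 2KO and deltaEmu against RAG2_deficient cells. Of 5 tested cartilage genes 3 fell in 2KO and 3 in deltaEmu cells, with sums of 8.06 to 11.3, 12.9 to 16.1 and 54.6 to 78.3 CPM in 2KO, deltaEmu and RAG2_deficient libraries, led by Col2a1. Of 10 stroma and fibroblast genes 5 fell in 2KO and 9 in deltaEmu cells, with sums of 270 to 278, 198 to 223 and 485 to 629 CPM, led by Cxcl12 and Vcam1. Of 10 endothelial genes 2 fell and 1 rose in each comparison, with sums of 42.8 to 49.6, 42.8 to 43.5 and 66.1 to 79.4 CPM.

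Blood cell lists were counted as well, and every gene of the marker lists that the table holds had a count in some femoral library. Some of these counts were below the floor of 3, as for Calcr and Msx2 with at most 1 count in a library. A count alone thus does not show that a cell type was present. Against RAG2_deficient cells, 4 of 9 erythroid genes rose in 2KO (median log2 1.43) and 1 fell in deltaEmu cells (median -0.96). All genes tested had medians of -0.0007 and -0.01 in these comparisons. Of 10 neutrophil genes none was called in 2KO (median 0.39) and 6 rose in deltaEmu cells (median 1.36). Of 12 B cell genes 6 fell in 2KO cells (median -1.49), while 5 fell and 3 rose in deltaEmu cells (median -1.12). Between 2KO and deltaEmu cells all 9 erythroid genes rose (median 2.36, all genes -0.01), beside the call of Ibsp. The share of all genes that rose among femoral groups is not given here. Of 10 macrophage and monocyte genes, 1 rose and 1 fell in 2KO, while 2 rose and 5 fell in deltaEmu against RAG2_deficient cells. Of 10 plasmacytoid dendritic cell genes, none was called in 2KO and 1 fell in deltaEmu cells. The part of these cells in the changes of the bone genes was not tested.

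**Figure D5:**
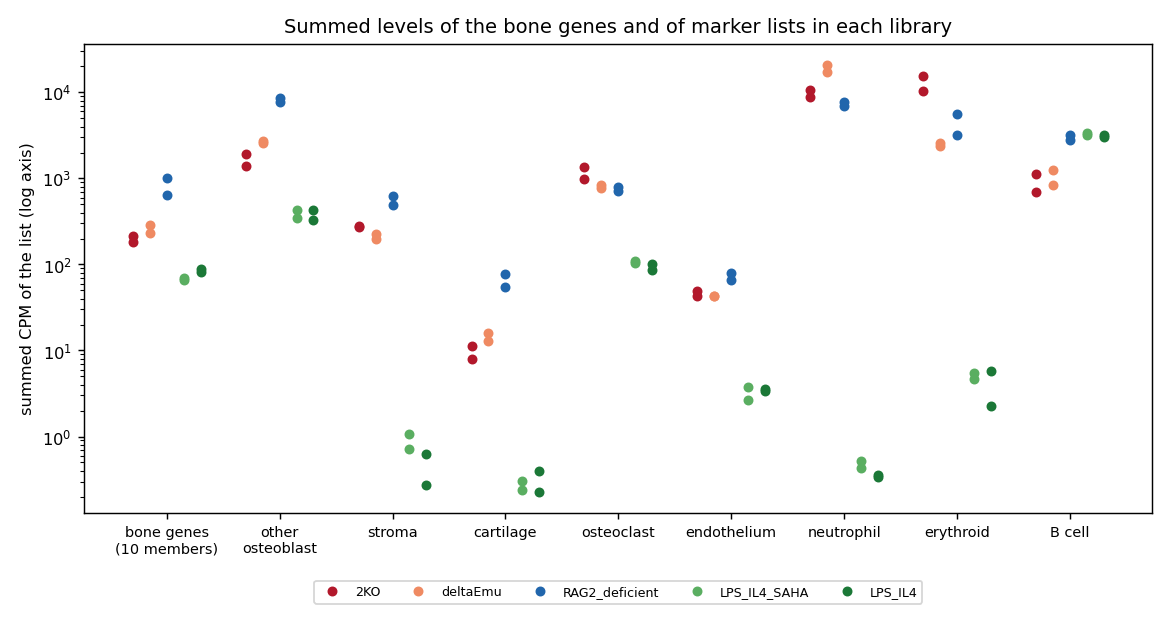
Summed CPM (log axis) of the 10 bone genes and of 8 marker lists in each library, coloured by group. The bone genes, the other osteoblast genes and the stroma, cartilage and endothelium lists are highest in both RAG2_deficient libraries. Among the femoral libraries the B cell list is also highest there. The neutrophil list is highest in deltaEmu and the erythroid list in 2KO libraries.

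Across the 6 femoral libraries, 9 of the 10 genes went along with the rest closely and Runx2 did not. The Pearson correlation of a gene's log2(CPM + 1) with the mean of the other 9 was 0.918 (Ibsp) to 0.994 (Alpl) for 9 genes and 0.217 for Runx2, which describes 6 libraries in 3 groups and carries no test. The share of all genes with correlations this high is not given here. Among 10437 other genes ranked by likeness to the mean of the 10, the nearest were Serpinh1 (0.998), a collagen chaperone, Col2a1 (0.997), Rpl3l (0.996), Ccdc80 (0.996), Prss35 (0.996), Cgref1 (0.994), Cpz (0.994), Mrc2 (0.993), a collagen receptor, Col1a1 (0.993) and Lamb2 (0.993), a laminin chain. Serpinh1 averaged 16.5 CPM in 2KO, 22.3 CPM in deltaEmu and 72.2 CPM in RAG2_deficient cells.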

How the data were processed

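Raw read counts per gene are the values the authors deposited, in 1 table for all 10 libraries. Per the submitters' processing notes, STAR 2.4.0a made the alignments to mm10/GRCm38 and featureCounts of Subread 1.4.6-p1 the counts. Which annotation release and strand setting were used, and what was done with reads matching several places, is not given in the sources used here. Libraries were stranded and made from 500 ng of total RNA, per the labels' protocols.

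The 100 control sequences (at most 17 counts in a library) were left out. The test was that of edgeR 4.0.16 under R 4.3.3 (filterByExpr with a minimum count of 10, TMM factors, quasi-likelihood F test, Benjamini-Hochberg over all genes tested). The 6 femoral libraries formed 1 fit, the 4 spleen libraries another and all 10 another, for femoral against spleen cells, each tested on simulated data first. CPM use TMM-adjusted library sizes. DESeq2 1.42.0, median-of-ratios factors, no filter, 615 immunoglobulin, mitochondrial and ribosomal RNA genes left out, 2 groups at a time and each library left out were alternatives. With 2 libraries against 2, an exact permutation test could not give a p below 0.333.

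Gene coordinates come from the deposited table. The genes and the marker lists were chosen with earlier results of these data known. Named genes are the 10 genes, other osteoblast genes with at least 10 CPM in a femoral group, at most 2 leading genes of each other list and the 10 genes most like the bone genes; 1 gene that this rule names is not reported here. The spleen groups share pool numbers (4_et_7 and 6_et_8), which per the labels mark the same wild-type mice in both groups; same-numbered libraries deviated from their group means with a correlation of -0.48 over 13913 genes. No pairing links the femoral groups.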

Additional observations from a re-analysis of the deposited data

How the results depend on the processing

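For femoral against spleen cells, all 10 calls kept their direction and their side of the threshold under all 14 alternatives. For the genes with few or no counts in spleen cells, higher was the only direction open. In 2KO against deltaEmu cells, 0 to 2 bone genes were called lower and 0 to 1 higher with 1 library left out. Without a filter on low counts 3 were lower and 1 higher, and with the 2 groups fitted alone 1 was higher, Runx2 in both cases. In 2KO against RAG2_deficient cells 5 to 9 were lower, and in deltaEmu against RAG2_deficient cells 0 to 9, with 1 library left out. With SAHA, 0 to 1 was lower with 1 library left out.

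The number of all genes called moved more. For 2KO against deltaEmu cells it was 612 in the fit reported, 1537 without a filter, 949 with DESeq2, 377 without immunoglobulin, mitochondrial and ribosomal RNA genes, 1580 with the 2 groups alone and 119 to 1587 with 1 library left out. For 2KO against RAG2_deficient cells it was 713, then 1971 without a filter, 1242 with DESeq2, 213 with the 2 groups alone and 153 to 3222 with 1 library left out. For deltaEmu against RAG2_deficient cells it was 1622, then 3308 without a filter and 259 to 5401 with 1 library left out. With SAHA it was 0, then 145 without a filter and 0 to 2670 with 1 library left out. The cause was not tested.

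With the pool number as a replicate block, 0 genes were called with SAHA, and no call of a bone gene changed. With the pool numbers crossed, an alternative added after seeing the data, 0 genes and 0 bone genes were called.

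Groups of 2 pooled libraries limit every comparison, and a fit that leaves 1 library in a group assumes that it varies like the others. Ifitm5, Sp7 and Dmp1 had at most 110 counts in each of the 2KO and deltaEmu groups. The assignment of columns to groups rests on the sample descriptions, which the titles contradict. RAG2_deficient libraries hold almost none of the Y-linked RNA seen in the other femoral libraries.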
